A study of Homo sapiens with 4 samples.

Results

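Immediate early genes are transcribed within minutes of a growth signal, from factors that are already present in the cell. Serum and growth factors act on many of them through SRF, the serum response factor, which binds a promoter motif called the CArG box together with ETS family partners of the ELK type or with actin-regulated partners of the MRTF type. EGR1, a zinc finger transcription factor, is a classical product of this route, and the IER and PHLDA genes include further early response genes whose short-lived mRNAs and proteins feed back on growth, survival and stress signalling. The genes described here are IER2, IER3, IER5 and IER5L of the IER group, PHLDA1, PHLDA2 and PHLDA3 of the PHLDA group, and EGR1 with SRF as the serum response pair. All 9 were found by symbol among the 13957 genes of the table.

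The genes were chosen by name at a time when the fold changes and tests of the same table were known, so that their selection is not independent of the response to cordycepin. MDA-MB-231 Fluc cells were treated for 2 h, either with 50 μM cordycepin (2 samples) or with the vehicle DMSO (2 samples), and their RNA was sequenced. Cordycepin is 3′-deoxyadenosine, an adenosine analogue from a fungus, and MDA-MB-231 is a triple-negative breast cancer cell line, here with an inserted luciferase gene. All 4 samples come from this single derivative line, and the labels do not say whether duplicates were separate cultures. Libraries were stranded, depleted of ribosomal RNA and read as 75 bp pairs.

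The measurement used here is the mean expression of each gene over the 4 libraries, given as log2 CPM (CPM is the number of reads of a gene scaled to a fixed total per library), 1 value per gene. It is the authors' mean and has no SD, and the depth of each library is unknown. It does not separate cordycepin from DMSO, so a gene whose mRNA differed between the treatments is represented by a value between its 2 group levels. The fold changes and tests of the comparison itself, as made by the authors, are not used here, and the effect of cordycepin on these genes is not analysed here. The spread between libraries being unknown, no neighbours in the orders of level given below can be said to differ. To compare genes with each other, CPM was divided by the gene length in the table, which gives a length-scaled level in log2 CPM per kb. Over all genes this level had a median of 2.43, with quartiles at 0.94 and 3.88.

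The cell line was first checked against markers of its type. VIM, CD44 and EGFR, which mark mesenchymal-like basal breast cancer cells, had length-scaled levels of 8.08, 7.25 and 5.0 log2 CPM per kb and were all above the median of all genes. The oestrogen and progesterone receptor genes ESR1 and PGR were not among the genes of the table. The epithelial genes CDH1 and EPCAM were in it, with length-scaled levels of 1.07 and 2.40 log2 CPM per kb. CDH1 was above 26.9% of all genes, whereas EPCAM lay just below that median, above 49.3%.

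The sequences below are printed because they carry the CArG box, the motif that SRF binds. RefSeq promoter windows, which run from 250 bases before the start to 50 bases from it on, were matched to 6 of the 9 genes. These are IER2, IER5, IER5L, PHLDA1, EGR1 and SRF. Sequence outside the windows was not searched for promoter motifs. The PHLDA1 window is set on a start 2156 bases downstream of that in the table. An exact CArG box was found in the windows of EGR1 and SRF, with 2 matches in each. The stretch around them is given for EGR1 at chr5:138465349-138465420 and for SRF at chr6:43171214-43171283, both on the plus strand of GRCh38.p14, and capitals mark the CArG boxes.

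EGR1: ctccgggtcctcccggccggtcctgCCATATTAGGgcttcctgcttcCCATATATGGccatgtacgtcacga

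SRF: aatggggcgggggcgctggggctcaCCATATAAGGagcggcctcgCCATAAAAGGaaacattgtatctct

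In EGR1 the matches began at positions -105 and -83 relative to the RefSeq start, and in SRF at positions -30 and -10. Their starts were thus 22 bases apart in EGR1 and 20 bases apart in SRF. Among all 34961 RefSeq windows, 453 (1.30%) held an exact CArG box, and 160 (1.12%) of the 14291 windows of genes in the table did. With 1 mismatch allowed, a match was also present in the IER5 window, but then 18.9% of all windows held a match. A match is a run of letters and does not show that SRF is bound there.

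The other motifs were searched on both strands in the same windows. CCGGAA, a form of the ETS factor motif, was found in IER2, IER5, PHLDA1 and SRF, which is 4 of 6 windows. The shares were 17.3% of all windows and 27.4% of windows of genes in the table. It began at position -26 in IER2, -74 in IER5, -89 in PHLDA1 and -70 in SRF. Only SRF held both exact CCGGAA and exact CArG boxes. With 1 mismatch allowed, CCGGAA was also matched in EGR1, but then 89.6% of all windows held a match. Shorter or other forms of the ETS motif were not searched, so their presence beside the CArG boxes of EGR1 was not tested. GCGNGGGCG, the motif of EGR factors, was found in EGR1 at position -198 and in SRF at position -49, and in 9.45% of all windows and 14.9% of windows of genes in the table. TATAAA was found only in SRF, on the minus strand at position 14, and in 11.5% of all windows and 5.98% of windows of genes in the table. TGACGTCA, the full cAMP response element, and TGANTCA, the AP-1 motif, were found in 0 of the 6 windows and in 1.85% and 7.68% of all windows (2.83% and 5.16% of windows of genes in the table). No match overlapped a match to another motif. The IER5L window held none of the 6 motifs. The 6 windows were rich in G and C, with a median of 69.3% and a range of 59.3% to 69.7%, compared with a median of 58.7% over all windows and 65.0% over windows of genes in the table. SRF was the lowest of them.

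**Figure D1:**
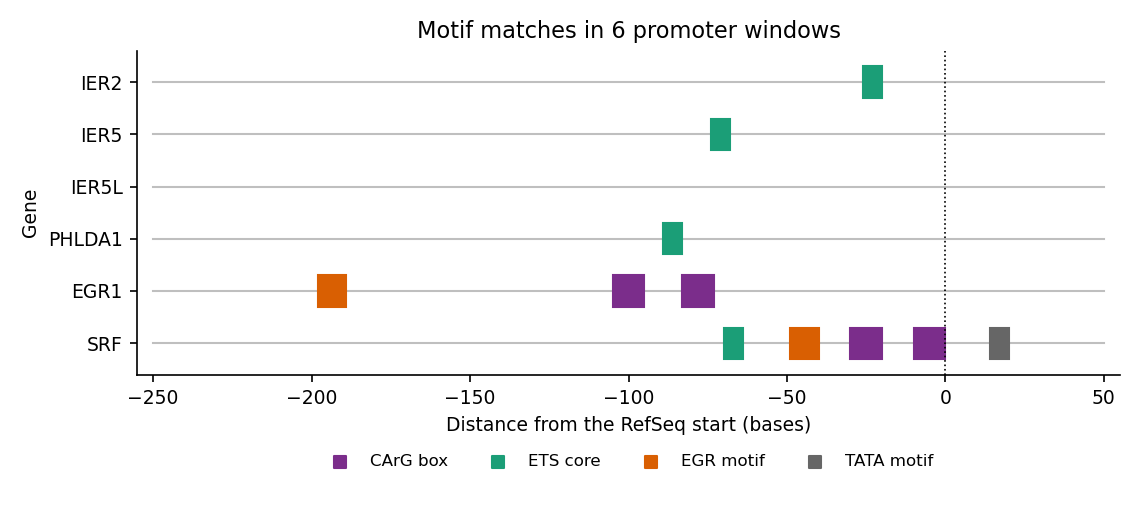
Positions of exact motif matches in the RefSeq promoter windows of 6 genes. The horizontal axis is the distance from the RefSeq start in bases. Each coloured box spans a match to the CArG box, CCGGAA (labelled ETS core), the EGR motif (GCGNGGGCG) or the TATA motif (TATAAA). CArG boxes are seen in EGR1 and SRF, CCGGAA in 4 windows, and no match in IER5L.

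SRF is the transcription factor that binds the CArG box, and its mRNA was abundant. SRF (ENSG00000112658, chromosome 6, 43171269 to 43181506, plus strand) had a mean log2 CPM of 7.53, which is 184 CPM and the highest of the 9 genes. Per length it stood at 5.45 log2 CPM per kb, above 91.1% of all genes. Protein coding genes closest to SRF in length-scaled level were S100A4 and HNRNPR just above and RPL14 and MRPL47 just below.

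EGR1, the other gene of the pair, was at the opposite end. EGR1 (ENSG00000120738, chromosome 5, 138465479 to 138469303, plus strand) had a mean log2 CPM of 3.07, or 8.42 CPM, the lowest of the 9 genes. Its length-scaled level was 1.42 log2 CPM per kb, above 32.4% of all genes. The level of SRF was thus 16.2 times that of EGR1 per length, a difference of 4.02 on the log2 scale. CASP8 and IFT88 lay just above EGR1 in length-scaled level, and DMXL2 and KLF11 just below.

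The IER genes encode small proteins without enzymatic domains, of which IER2 and IER5 have been linked to transcription and IER3 to the control of apoptosis. IER3 (ENSG00000137331, chromosome 6, 30743199 to 30744548, minus strand) had a mean log2 CPM of 5.66 (50.7 CPM). Its length-scaled level of 5.23 log2 CPM per kb was above 89.8% of all genes. IER5, which is known as a cofactor of heat shock factor signalling (ENSG00000162783, chromosome 1, 181088700 to 181092900, plus strand), had a mean log2 CPM of 6.33 (80.3 CPM). More of the reads in the 4 libraries therefore came from IER5 than from IER3, whereas per length the order was reversed, with IER5 at 4.26 log2 CPM per kb, above 80.2% of all genes.

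IER2 (ENSG00000160888, chromosome 19, 13150411 to 13154911, plus strand) had a mean log2 CPM of 4.43 (21.6 CPM) and a length-scaled level of 2.81 log2 CPM per kb, above 56.9% of all genes. IER5L, the paralogue of IER5 (ENSG00000188483, chromosome 9, 129175552 to 129178261, minus strand), had a mean log2 CPM of 3.32 (9.96 CPM). At 1.88 log2 CPM per kb it was above 40.2% of all genes. The IER group thus spanned 3.35 on the log2 scale per length, or 10.2-fold from IER5L to IER3.

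The closest protein coding genes by length-scaled level were found for IER3, IER2 and IER5L as well. For IER3 they were SNRPA and SNW1 above and PLOD3 and ECT2 below. IER2 lay below YY1AP1 and RSRC2 and above ASB6 and SLC5A3, and IER5L lay below SDHAF1 and CCDC78 and above CRYZL1 and SFR1. Likeness here means only a small difference in 1 pooled value, at most 0.0044 on the log2 scale for any of the 9 genes.

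PHLDA proteins share a pleckstrin homology-like domain, which in PHLDA3 binds membrane phosphoinositides and competes with AKT. PHLDA2 (ENSG00000181649, chromosome 11, 2928273 to 2929420, minus strand), an imprinted gene best known for restraining placental growth, had a mean log2 CPM of 5.74 (53.4 CPM). With the shortest length of the group, 920 bases, it had the highest length-scaled level of the 9 genes, 5.86 log2 CPM per kb, above 93.6% of all genes. GSTO1 and HSPA4 lay just above PHLDA2 in length-scaled level, and PRMT1 and PPIF just below.

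PHLDA1, a growth factor-inducible gene (ENSG00000139289, chromosome 12, 76025447 to 76033932, minus strand), had a mean log2 CPM of 7.31 (158 CPM), the second highest after SRF. Its length-scaled level was 4.29 log2 CPM per kb, above 80.6% of all genes. This value depends on the annotation, because the table gives PHLDA1 a length of 8069 bases and a start 2156 bases upstream of that in GENCODE 44, where its exons cover 5913 bases. Scaled by the latter, its level was 4.74 log2 CPM per kb. OS9 and PPARD lay just above PHLDA1 at the length in the table, and ATP5MC2 and NR2F6 just below.

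PHLDA3, an inhibitor of AKT (ENSG00000174307, chromosome 1, 201464278 to 201469237, minus strand), had a mean log2 CPM of 3.79 (13.9 CPM). Its length-scaled level was 2.10 log2 CPM per kb, above 43.9% of all genes. From PHLDA3 to PHLDA2 the group spanned 3.76 on the log2 scale per length, or 13.6-fold.

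**Figure D2:**
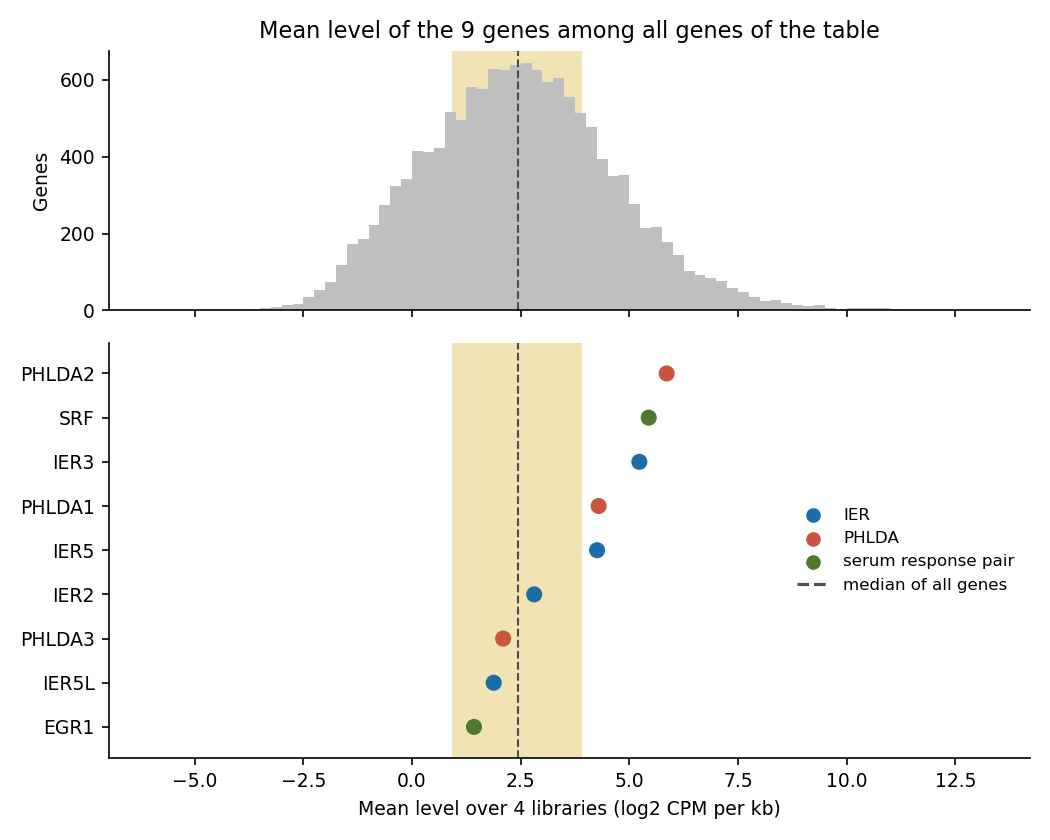
Mean level of the 9 genes over 4 libraries, in log2 CPM per kb on the horizontal axis, below a histogram of the same level for all 13957 genes. Points are single pooled values without an error, the band marks the quartiles of all genes and the dashed line their median at 2.43. Levels ran from 1.42 for EGR1 to 5.86 for PHLDA2, and PHLDA3, IER5L and EGR1 were below the median.

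Across the 9 genes the order of length-scaled level was PHLDA2, SRF, IER3, PHLDA1, IER5, IER2, PHLDA3, IER5L and EGR1. The median was 4.26 log2 CPM per kb, compared with 2.43 over all genes. Of the 9 genes, 6 were above the median of all genes, 5 were above the upper quartile and 0 were below the lower quartile. This depends on the length used, since all 9 were above the median when the span from gene start to gene end was used for every gene. The smallest step in the order, between PHLDA1 and IER5, was 0.036 on the log2 scale, and it was wider with the GENCODE length of PHLDA1 (4.74 against 4.26 log2 CPM per kb). The largest step, from IER5 to IER2, was 1.45. Without length scaling the order began with SRF, PHLDA1 and IER5, and it ended with PHLDA3, IER5L and EGR1, as it did per length.

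**Figure D3:**
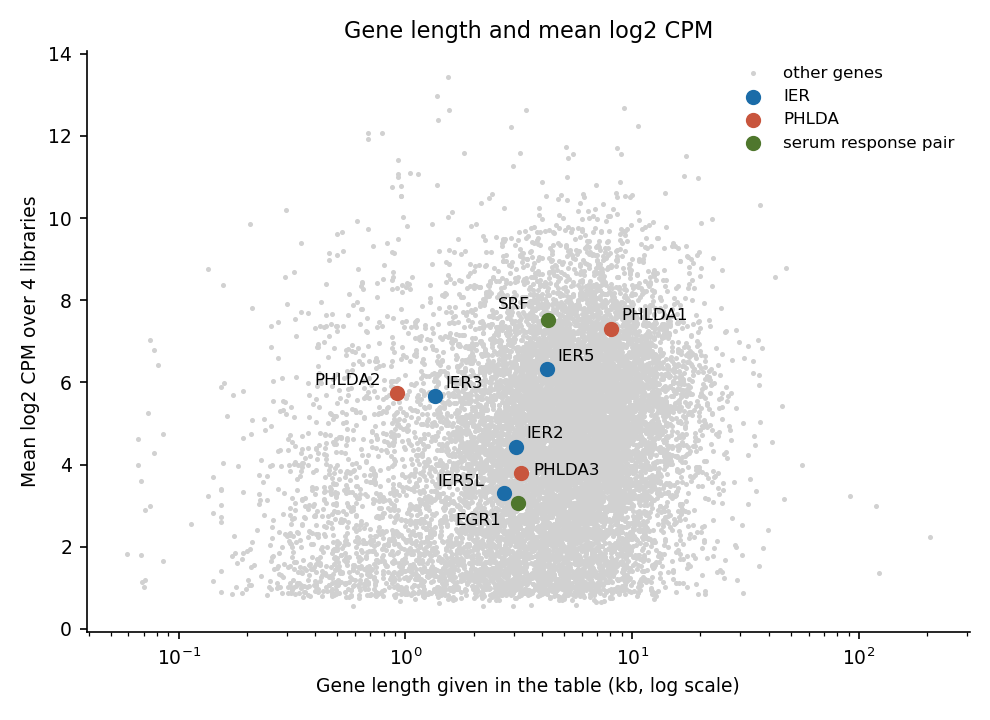
Gene length in kb on a log scale against mean log2 CPM over 4 libraries, for all genes of the table (grey) and the 9 genes (coloured by group). PHLDA2 and IER3 are the shortest of the 9 genes, and PHLDA1 is the longest at 8069 bases.

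The 9 genes are compact. In the canonical GENCODE 44 transcripts IER5 and IER5L are encoded by a single exon, SRF has 7 exons, and each of the other 6 genes has 2. A single exon was found for 1.89% of the 11603 protein coding genes of the table, whose median was 9 exons. The median span from gene start to gene end was 4201 bases for the 9 genes and 33892 bases for protein coding genes of the table. Transcript lengths were closer, with medians of 2749 and 3445 bases. The G and C content of the 9 transcripts had a median of 59%, compared with 48%, and PHLDA1 was the lowest at 43.0%.

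**Figure D4:**
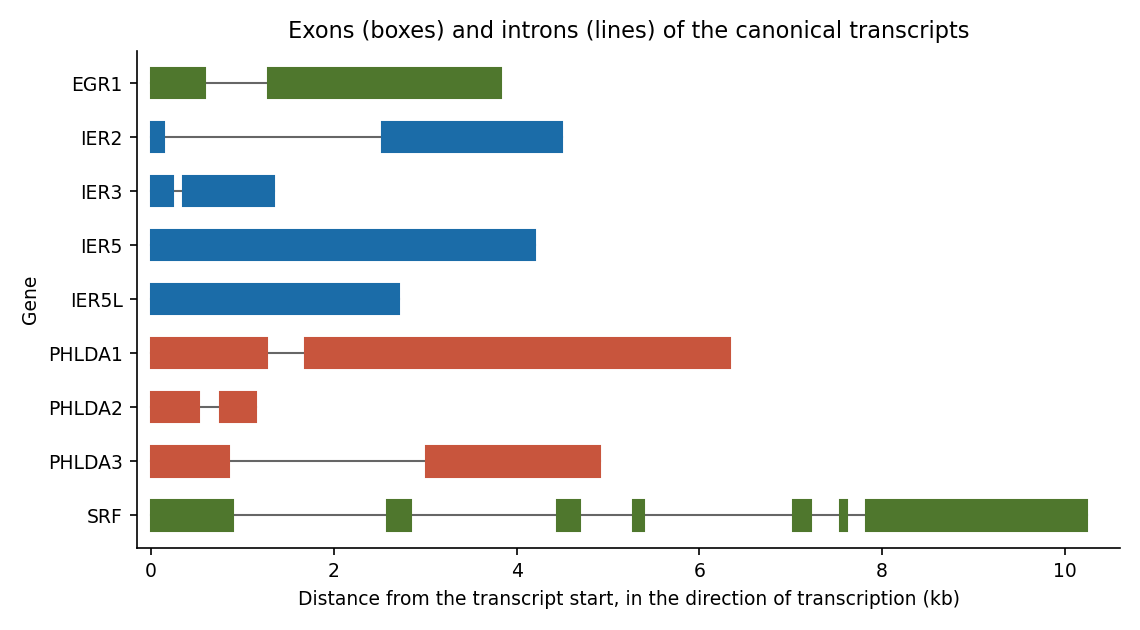
Canonical GENCODE 44 transcripts of the 9 genes drawn to scale, with exons as boxes and introns as lines. The horizontal axis is the distance from the transcript start in kb. IER5 and IER5L have a single exon, SRF has 7 exons and the other genes have 2.

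The 3′ UTRs differed widely in length, from 405 bases in PHLDA2 and 737 in IER3 to 3014 in IER5 and 4672 in PHLDA1, where it is 79.0% of the transcript. Their median was 1286 bases, compared with 1370 bases over protein coding genes of the table. AU-rich elements in this region are known to shorten the life of many early response mRNAs. The nonamer TTATTTATT was found in the 3′ UTR of 3 of the 9 genes, and in 9.84% of the 11582 protein coding genes of the table that have a 3′ UTR. The 3 genes, PHLDA1, IER5 and SRF, have the longest 3′ UTRs of the 9, and these shares were not adjusted for length. Sites of the nonamer are given in GRCh38, with the nonamer in capitals. They lie at chr1:181092447-181092475 on the plus strand for IER5, where 3 overlapping copies form a run of 17 bases, at chr12:76029787-76029815 on the minus strand for PHLDA1, and at chr6:43179224-43179252 on the plus strand for SRF.

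IER5: cttcctTTATTTATTTATTTATTtaatta

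PHLDA1: tgatttatgaTTATTTATTagtttttttt

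SRF: atggcaccacTTATTTATTgttgcctttt

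In IER5 the run begins at base 2567 of the 3′ UTR, in PHLDA1 at base 314 and in SRF at base 44. The shorter motif ATTTA occurred 14 times in PHLDA1, 10 times in IER5 and 6 times in IER3. Per length IER3 was the densest, with 8.14 copies per kb of 3′ UTR, above 98.2% of the protein coding genes compared. SRF had 3 copies (1.30 per kb), EGR1 had 1 copy (0.82 per kb) and IER2 had 0 copies. The median density was 2.33 copies per kb over the 9 genes and 1.74 over those protein coding genes. The nonamer was thus found in SRF and not in EGR1, whose 3′ UTR is shorter (1222 bases, compared with 2316 in SRF).

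The proteins were compared after translation of the canonical coding sequences. PHLDA1 encodes 401 residues, PHLDA2 152 and PHLDA3 127. In a global alignment without penalty for end gaps, PHLDA1 and PHLDA3 shared 67 residues, or 52.8% of the shorter protein. PHLDA2 and PHLDA3 shared 61 (48.0%), and PHLDA1 and PHLDA2 shared 66 (43.4%). Nearly the whole of the shorter proteins was therefore aligned within PHLDA1, with 126 of the 127 residues of PHLDA3 placed opposite a residue of it. PHLDA1 holds a run of 15 glutamines and an uninterrupted stretch of 11 prolines and histidines. Glutamine made up 14.0% of PHLDA1, compared with 3.29% of PHLDA2 and 5.51% of PHLDA3.

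IER2, IER5 and IER5L encode 223, 327 and 404 residues. IER2 and IER5 shared 86 residues (38.6% of the shorter protein), IER5 and IER5L shared 124 (37.9%), and IER2 and IER5L shared 61 (27.4%). The first 50 residues and the remainder of each protein were then aligned separately, so that their counts need not add up to those of the whole proteins. Over the first 50 residues, 35 (70%) were identical between IER5 and IER5L, 28 (56%) between IER2 and IER5, and 24 (48%) between IER2 and IER5L, whereas in the remainder identity was 28.5%, 30.1% and 31.8% of the shorter remainder. IER5L differed from IER5 in a run of 8 glutamines, where the longest in IER5 is 3.

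IER3 encodes 156 residues. Its identity was 3.21% of the shorter protein with IER5, 16.7% with IER2 and 27.6% with IER5L, the last close to that of IER2 with IER5L. The 27 pairs that are not within the IER or the PHLDA group, EGR1 with SRF among them, ranged from 0.50% to 23.0%. The lowest shares come from short overlaps, of 17 aligned residues for IER3 with IER5 and 9 for PHLDA1 with SRF. A local alignment of IER3 with IER5 held 19 identical residues of 53 aligned. These shares therefore do not rank the likeness of IER3 to the other IER proteins. Proline made up 16.7% of IER3, the highest share of the 9 proteins. For paralogues alike in sequence the mRNA levels can be set side by side. IER5 was 5.20 times the level of IER5L and 2.73 times that of IER2 per length, and IER2 was 1.91 times that of IER5L. PHLDA1 was 4.59 times that of PHLDA3, and PHLDA2 was 13.6 times that of PHLDA3 and 2.96 times that of PHLDA1. The ratios with PHLDA1 use its length in the table and change with its GENCODE length, which gave 4.74 log2 CPM per kb.

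Partners and relatives of the 9 genes were then placed on the same scale. All 5 SRF partner genes listed were in the table. ELK1 and ELK3, ETS factors that form the ternary complex with SRF, had length-scaled levels of 5.13 and 4.93 log2 CPM per kb, near that of SRF. ELK4 stood at 2.74, and the actin-regulated coactivators MRTFA and MRTFB at 1.33 and 0.49, the last pair below the median of all genes. These places depend on the length scaling, as ELK4 and MRTFB have lengths of 12191 and 16580 bases. By mean log2 CPM, ELK4, MRTFA and MRTFB were above 79.7%, 44.7% and 49.4% of all genes, compared with 55.8%, 30.7% and 19.1% per length. For ELK1 the shares were 86.5% and 89.0%, and for ELK3 88.9% and 87.4%. NAB1 and NAB2, which repress EGR factors, had length-scaled levels of 3.04 and 1.76 log2 CPM per kb, both above EGR1. EGR2, EGR3 and EGR4 were not among the genes of the table.

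Of 10 SRF target genes of the cytoskeleton and matrix, 9 were in the table and 7 of these were above the median of all genes. The actin genes ACTB and ACTG1 were the highest, at 10.9 and 10.7 log2 CPM per kb, followed by CCN1 at 7.28 and CCN2 at 6.88. VCL and MYL9 both stood at 5.67 and FHL2 at 2.99. TAGLN (0.95) and ACTA2 (-0.36), which are high in smooth muscle, were below the median, and CNN1 was not among the genes of the table.

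Of 14 other early response transcription factor genes, 12 were in the table, with a median of 2.22 log2 CPM per kb, below the median of 4.26 of the 9 genes. FOSL1 was the highest at 7.66, followed by JUN at 4.8, JUND at 4.65, MYC at 3.98 and KLF6 at 3.96. These 5 were above the median of all genes. JUNB at 2.43 lay just below it, and KLF2 and KLF4 stood at 2.01 and 1.42. ATF3, FOS, NR4A2 and NR4A1 had levels of -0.24, -0.70, -0.95 and -1.39. These 4 and KLF4 were below EGR1, KLF4 by less than the 2 decimals given. FOSB and NR4A3 were not among the genes of the table.

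Genes that share part of their name with the groups were placed as well. IER3IP1, which encodes a protein of the endoplasmic reticulum, had a length-scaled level of 3.04 log2 CPM per kb. PHLDB2, PHLDB1 and PHLDB3 had 2.17, 1.68 and -0.46. By mean log2 CPM, PHLDB2 and PHLDB1 were above 70.8% and 76.0% of all genes, compared with 45.4% and 36.6% per length. IER3IP1 (58.9% and 61.1%) and PHLDB3 (11.5% and 8.78%) moved less.

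**Figure D5:**
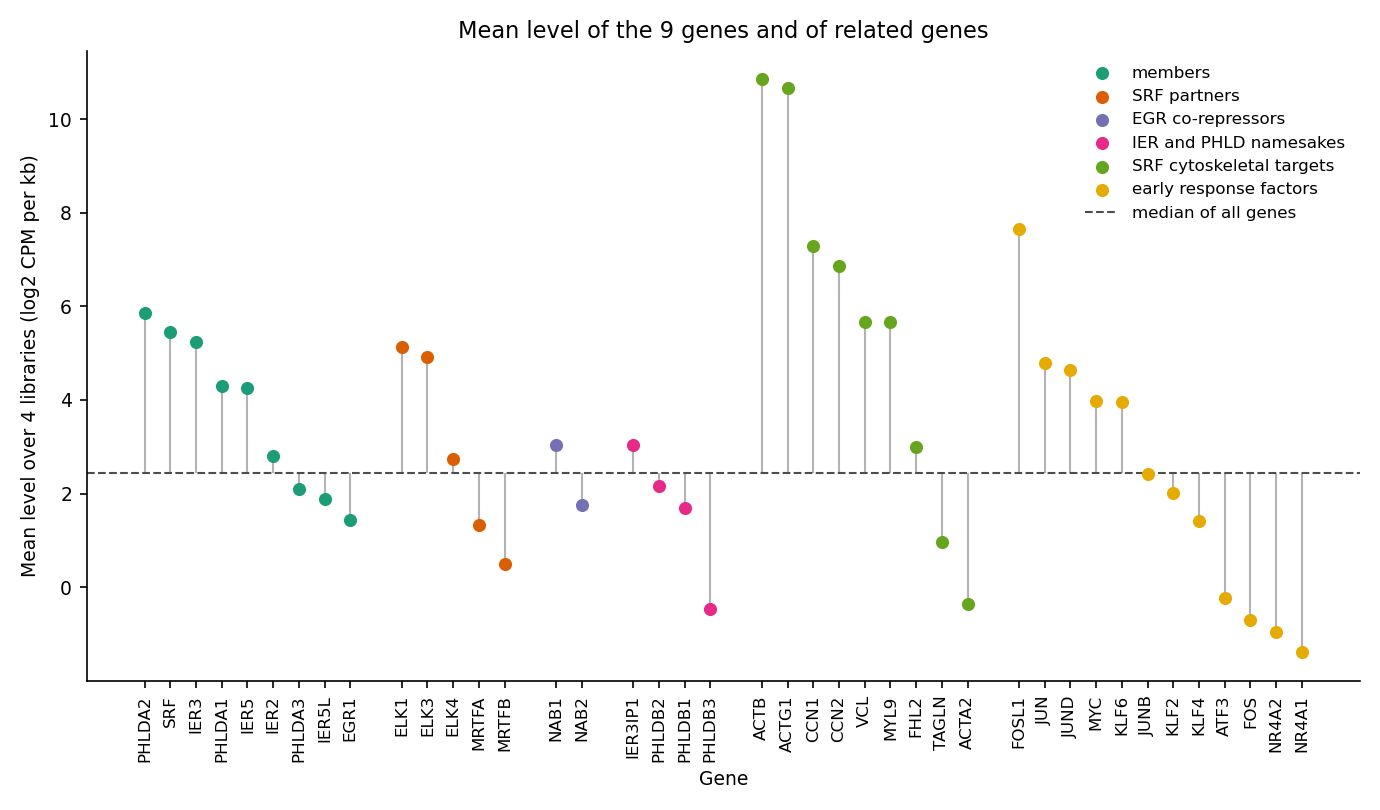
Mean level over 4 libraries, in log2 CPM per kb on the vertical axis, of the 9 genes (members) and of 5 lists of related genes found in the table. Points are single pooled values without an error, and stems join them to the median of all genes at 2.43. ACTB, ACTG1, FOSL1, CCN1 and CCN2 lie above all 9 genes, and 10 genes, from KLF4 just under EGR1 to NR4A1, lie below all of them.

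Some of these values rest on loci shared with other genes. GENCODE 44 places genes on the opposite strand over parts of IER2, IER3 and PHLDA1, among them IER3-AS1 over 440 bases and PHLDA1-AS1 over 885 bases. IER5L is overlapped on the opposite strand over all of its 2710 bases by a gene annotated as protein coding, and over 2455 bases by IER5L-AS1. A gene on the same strand lies over 764 bases of PHLDA3. These genes were not in the table. The strand setting of the authors' counting is not given in the sources used here. It is therefore unknown whether reads of genes on opposite strands were told apart. Strand does not separate PHLDA3 from the gene on its own strand. Whether the exons of such pairs overlap was not tested.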

How the data were processed

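RNA of MDA-MB-231 Fluc cells (2 cordycepin and 2 DMSO samples) was analysed from the table deposited for the series. Per the study's methods, the authors used GRCh38.p13 for mapping and rsubread for counting, while the submitters' processing notes name TopHat, HTSeq, DESeq, Cufflinks and hg38. The deposited table gives the authors' mean log2 CPM over libraries and a length for each gene. Normalization, prior count and the filter on low counts are not given in the sources used here. The table also holds the authors' log2 fold change, F statistic, p-value and adjusted p-value, which were not used. It holds 0 columns of values per sample, so that the planned test between treatments was not made, and depth and SD are unknown.

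Levels were log2 CPM less log2 of the length in kb. Percentiles are shares of genes with a lower value. Of the gene IDs, 13922 (99.7%) were matched to GENCODE 44, and for 73.7% of these the length equalled its exon union. Canonical transcripts gave exons, UTRs and proteins. Promoter sequences were those of RefSeq (GRCh38.p14), using for SRF the start nearest to that in the table. Proteins were aligned with BLOSUM62, a gap opening score of -11 and extension of -1. Scripts were tested on simulated data. The 9 genes and the lists were chosen with earlier results of these data known. Named were the 9 genes, all genes of the lists and the closest 2 protein coding genes above and below each gene in level, except that those of IER5 and PHLDA3 are not reported here; the search of 3′ UTRs was added after the data were seen. Python 3.11.15, numpy 2.4.6, pandas 2.3.3, Biopython 1.88 and matplotlib 3.10.9 were used.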

Additional observations from a re-analysis of the deposited data

How the results depend on the processing

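The median level of the 9 genes, 4.26 log2 CPM per kb, was 4.17 when scaled by the span from gene start to gene end, 6.35 when scaled by coding length and 5.66 without length scaling. The number above the median of all genes, 6, was 9 with the span, 5 without length scaling, 5 when genes below the lower quartile of mean log2 CPM were left out and 6 among protein coding genes. Percentiles of single genes moved by at most 1.95 points among protein coding genes and by at most 33.9 points with the span. The largest shift was 23.7 points without length scaling and 15.9 points without genes below that quartile. By mean log2 CPM, PHLDA2 and IER3 were above 69.9% and 68.4% of all genes, compared with 93.6% and 89.8% per length. PHLDA1 and SRF moved up instead, to 90.4% and 92.3%. Over aligned columns, identity was 49.6% for PHLDA2 with PHLDA3, 44% for IER5 with IER5L and 39.6% for IER2 with IER5. With 1 mismatch, 3 of the 6 windows and 18.9% of all windows held a match to the CArG box, compared with 2 of 6 and 1.30% for exact matches. Exact matches were found in 1.12% of windows of genes in the table. At least 3 copies of ATTTA, a criterion added after seeing the data, were present in 5 of the 9 genes and in 48.1% of protein coding genes. No paired analysis was possible because values for single libraries are not in the table used here, and for the same reason no library could be left out and no other count test was run.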
